A study of Mus musculus with 12 samples.

Results

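The 91 genes described here carry the symbols of respiratory chain complexes I, III and IV and of the ATP synthase, complex V, and were measured by mRNA sequencing in mouse fetal liver alveolar-like macrophages (FLAMs). They were chosen by symbol, as those that start with Ndufa, Ndufb, Ndufc, Ndufs or Ndufv (complex I), Uqcr (complex III), Cox4 to Cox8 (complex IV) or Atp5 (complex V), without symbols that end in -ps and a number, and by level, with at least 10 counts in 3 or more of the 12 libraries. Of 96 such symbols, 91 reached that minimum, out of 40847 rows in the count table and 14749 genes tested. The 91 comprised 38 complex I subunits with introns, 6 single-exon copies of complex I genes (5 annotated as processed pseudogenes and Ndufb4b as a long non-coding RNA), 8 complex I assembly factors (Ndufaf genes), 8 genes of complex III, 14 of complex IV and 17 of complex V. FLAMs are grown out of fetal liver cells with GM-CSF, a growth factor, which all 4 groups received at 30 ng/ml. The untreated group had GM-CSF alone, the TGFβ group was also cultured with recombinant human TGFβ1 at 20 ng/ml, the Pam3 group was given the TLR2 ligand Pam3CSK4 at 25 ng/ml for 18 h, and the Pam3+TGFβ group had both. Each group held 3 libraries, and the labels, which enter FLAMs as a cell line, name no mouse strain or length of TGFβ culture, do not say how many preparations the cells came from, and do not say that replicates were separate cultures, so p-values measure the spread between these libraries.

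The respiratory chain sits in the inner mitochondrial membrane. Complex I takes electrons from NADH and complex II takes them from succinate, both pass them over ubiquinone to complex III, cytochrome c carries them on to complex IV, which reduces oxygen, and the proton gradient built by complexes I, III and IV drives ATP synthesis by complex V. Most subunits are encoded in the nucleus and a small set in mitochondrial DNA, so the 2 sets of transcripts are made in different compartments. In macrophages, activation through Toll-like receptors is known for a shift of energy metabolism towards glycolysis, and alveolar macrophages, whose identity depends on GM-CSF and TGFβ, are known for high oxidative metabolism.

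Library totals ran from 34036650 to 44374115 counts, and the members took 0.460% to 0.596% of them. The 10 pan-macrophage marker genes all passed the expression filter and, on the scale of CPM (a gene's counts relative to its library's scaled total), summed to 34510 to 39100 in untreated, 20320 to 22800 in TGFβ, 35780 to 39020 in Pam3 and 30040 to 30550 in Pam3+TGFβ libraries. The 8 alveolar macrophage markers summed to 2957 to 3460 CPM in untreated, 1720 to 1928 in TGFβ, 4225 to 4684 in Pam3 and 2675 to 2865 in Pam3+TGFβ libraries. The falls of the sums with TGFβ were largest in Lyz2 (mean 29500 CPM in untreated and 16420 in TGFβ cells) and Marco (2122 and 132.8 CPM), while the means of Siglecf (31.8 and 323 CPM), Pparg (115 and 242 CPM), Car4 (443 and 834 CPM) and Krt79 (0.147 and 56.5 CPM) were higher with TGFβ and those of Itgax (332 and 181 CPM), Il18 (76.05 and 47.8 CPM) and Fabp4 (30.8 and 0.141 CPM) lower. The 8 alveolar markers thus split 4 and 4 by their means. Of the 10 pan-macrophage markers Mertk and Fcgr1 had higher means with TGFβ and the other 8 lower ones, among them Adgre1 and Itgam (1076 and 41.7 CPM). The part of these markers in the results was not tested. Markers of other cell types were low: Ttr and Fgb of 6 hepatocyte markers and Cd3e and Ncr1 of 5 lymphocyte markers were at 0 in all 12 libraries, 6 erythroid markers summed to at most 0.609 CPM, and Mpo and Retnlg of 6 granulocyte markers were at 0. The granulocyte markers, mostly S100a8, summed to 13.1 to 15.3 CPM in untreated and 14.6 to 15.3 in Pam3 libraries and to 3.29 to 5.56 in TGFβ and 4.76 to 5.38 in Pam3+TGFβ libraries, so they too moved with TGFβ, and their part in the results was not tested. The 6 hepatocyte markers, nearly all Afp, summed to 5.62 to 7.21 CPM in the untreated, TGFβ and Pam3 libraries and to 8.40 to 10.2 CPM in Pam3+TGFβ libraries, which lay above all others, and their part in the results was not tested either. The markers of fibroblasts, endothelium, lymphocytes and megakaryocytes summed to 0 to 6.21 CPM. Those of megakaryocytes summed to 2.74 to 4.44 CPM in untreated and 3.35 to 5.02 in TGFβ libraries. In Pam3 libraries they summed to 4.47 to 6.21 CPM and in Pam3+TGFβ libraries to 2.50 to 2.97, and their part in the results was not tested. A pair of features of the libraries bear on the values that follow. Untreated replicate 2 had the highest summed level of the members, 6009 CPM against 5389 and 5160 CPM in the other untreated libraries. Mitochondrial rRNA took 0.348% to 0.596% of counts in 5 libraries (untreated replicate 3, TGFβ replicates 1 and 3, Pam3 replicates 2 and 3) and 0.0680% to 0.113% in the other 7, which include all 3 Pam3+TGFβ libraries. For each comparison the calls of members lost without these 5 libraries are given, and that fit leaves 2 untreated, 1 TGFβ, 1 Pam3 and 3 Pam3+TGFβ libraries, so that a lone library is assumed to vary like those of the other groups.

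Levels can be compared between genes only per length of transcript. The length used was that of 1 canonical transcript per gene, such as 4389 bases for Ndufb2 and 682 for Ndufb8. Which transcripts these cells made was not determined. On the scale of mean CPM per kilobase over 12 libraries, the catalytic β and α subunits of the ATP synthase, Atp5b at 381 and Atp5a1 at 319, and Cox4i1, the ubiquitous form of a structural subunit of complex IV, at 368, stood at the top. Within complex I the level per kilobase ran from 1.02 for Ndufb2 to 97.96 for Ndufb8, with a median of 27.6 over the 38 subunit genes. Within complex III it ran from 2.22 for Uqcr11 to 113 for the core protein gene Uqcrc1. The 8 assembly factors, which help build complex I and are not part of it, had a median of 5.67. The lowest levels were those of Cox4i2, a tissue-restricted isoform of complex IV, at 0.378, and of Ndufb2, followed by Atp5k of complex V at 1.10 and Cox7a1, the muscle form of Cox7a2, at 1.11. On this scale subunits of 1 complex thus differed by far more than the treatments moved any of them. The part in this of the chosen length, and of an aligner that does not split reads at introns, was not tested. For the small genes with single-exon copies the level also depends on where reads were placed, as described further on.

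By the number of calls, TGFβ without Pam3 moved more members than the other treatments did. Comparing TGFβ with untreated cells, edgeR's quasi-likelihood test called 34 of the 91 members lower and 5 higher at a Benjamini-Hochberg adjusted p under 0.05, where 28.1% of all tested genes were called lower and 22.9% higher. The members' share called lower was thus 37.4% and the share called higher 5.49%. The median log2 fold change over the members was -0.14, against -0.0084 over all tested genes. Lower calls were made in all 4 complexes, for 13 of 38 complex I subunits, 4 of 8 genes of complex III, 7 of 14 of complex IV, 7 of 17 of complex V, 2 of 6 single-exon copies and 1 of 8 assembly factors. The 99 cytosolic ribosomal protein genes, a set of similarly abundant short transcripts, had a median of 0.11 with 26 called higher and 9 lower, and the 78 mitochondrial ribosomal protein genes a median of -0.066 with 5 higher and 16 lower. Without untreated replicate 2 the members' median was -0.051 and without untreated replicate 3 it was -0.20, while the number called lower stayed between 27 and 39 over the 12 fits that each left out 1 library. The number called higher was 8 without untreated replicate 2 and 3 without untreated replicate 3 or TGFβ replicate 2. Without the 5 libraries high in mitochondrial rRNA, which leaves 1 TGFβ library against 2 untreated ones and takes the spread of the first from the other groups, 24 members were called lower and 3 higher, where 19.5% of all tested genes were lower and 15.1% higher, and Atp5c1, Atp5j, Atp5pb, Cox4i2, Cox7b, Ndufa4, Ndufaf1, Ndufb4c, Ndufb7, Ndufb9, Ndufs5, Ndufv2, Uqcrc2 and Uqcrh were no longer called. As the libraries come from bulk RNA, fewer cells with these transcripts and less of them per cell cannot be told apart, and CPM is a share of the counted RNA, not an amount per cell.

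**Figure D1:**
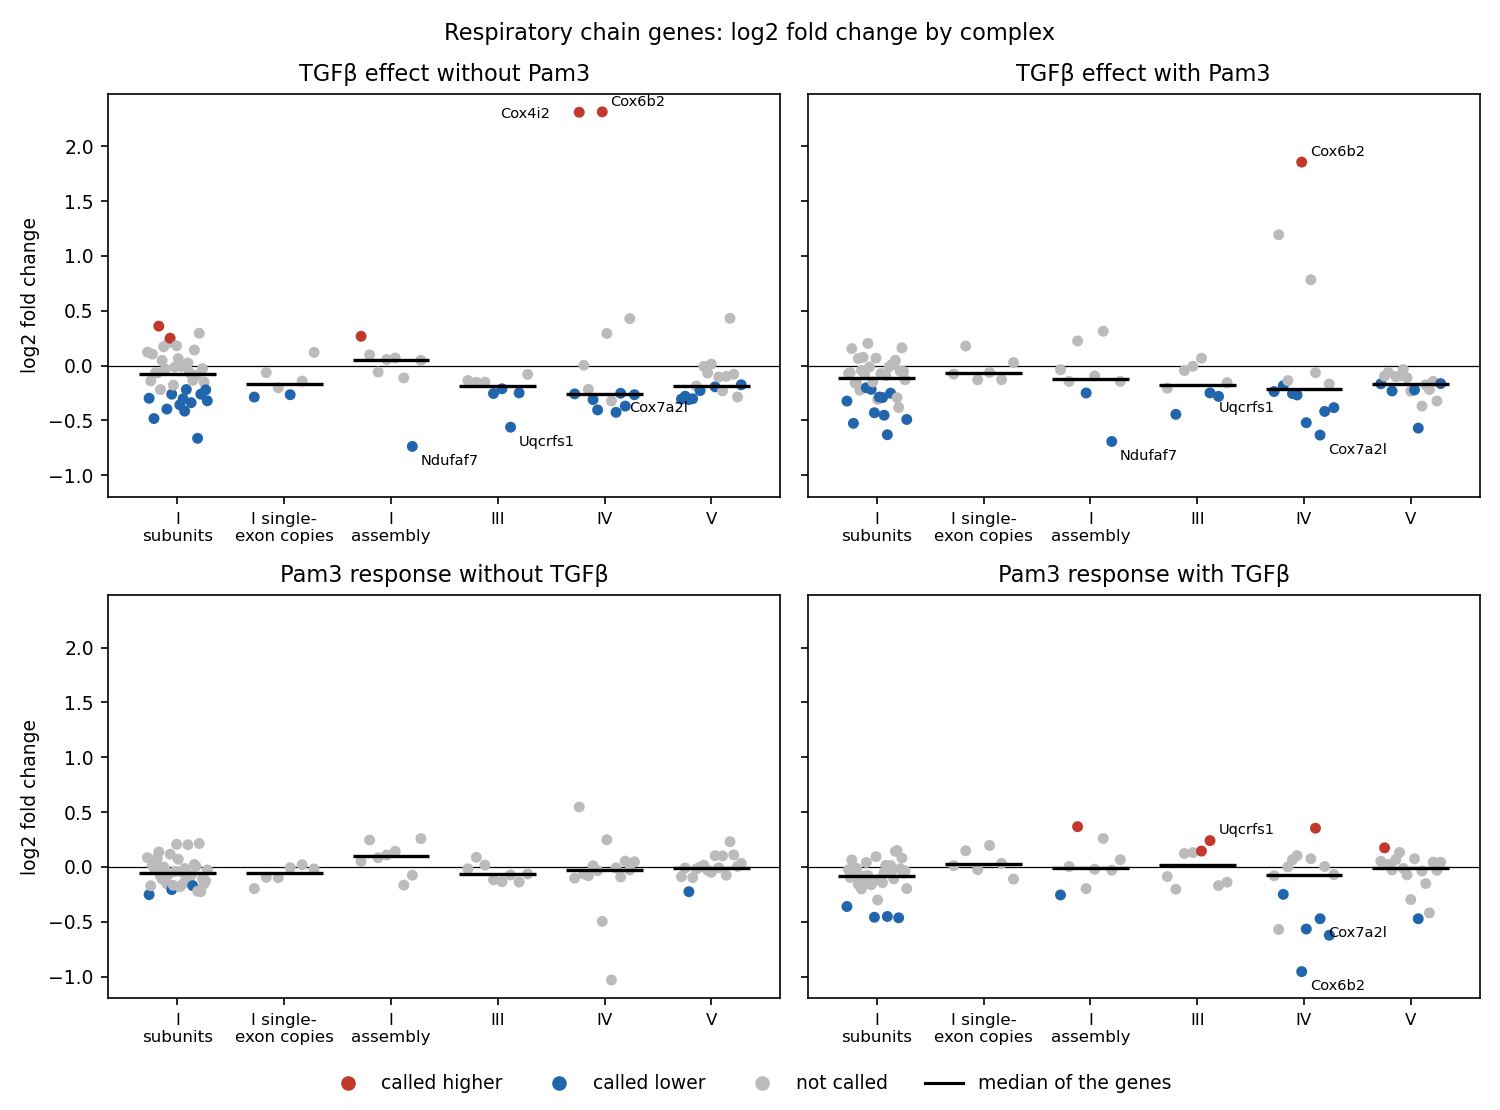
Log2 fold change (vertical axis) of each member, grouped by complex (horizontal axis), in the 4 comparisons of 3 against 3 libraries; red points were called higher, blue points lower and grey points not called at an adjusted p under 0.05, and black bars are medians. Both TGFβ panels show medians below 0 for complexes I, III, IV and V. Cox6b2 and Cox4i2 lie highest in complex IV, at 2.31 each without Pam3 and at 1.86 and 1.19 with Pam3.

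Of the 17 genes of complex V, 7 fell with TGFβ, 4 of them among 5 for the F1 head and 3 among the other 12, a difference that was not tested. The head, where ATP is made, is built from the products of Atp5a1, Atp5b, Atp5c1, Atp5d and Atp5e, of which all but Atp5e were called. Atp5b stood at 757, 852 and 745 CPM in the untreated libraries and at 673, 639 and 627 CPM in the TGFβ libraries, with no overlap between the groups, a log2 fold change of -0.28 ± 0.055 (SE) and an adjusted p of 0.000142. Atp5a1 stood at 868, 925 and 845 CPM without and 729.5, 717 and 687 CPM with TGFβ, again without overlap (-0.31 ± 0.052, adjusted p 1.87e-05). Atp5c1, the γ subunit of the rotating stalk, gave -0.31 ± 0.062 and Atp5d, its δ partner, -0.30 ± 0.061. Atp5e, the small ε subunit, gave -0.19 ± 0.088 and did not pass the test (adjusted p 0.0862). Of the 12 fits that left out 1 library, 11 did not call Atp5e, and its change was -0.06 without untreated replicate 2. The fit without untreated replicate 3 did call it (-0.30, adjusted p 0.00292). Of the 12 genes of the membrane part and outer stalk, 3 fell: the coupling factor gene Atp5j (-0.19 ± 0.062), Atp5pb of the outer stalk (-0.18 ± 0.066) and Atp5g1. Atp5j was not called without TGFβ replicate 1 (-0.15), and Atp5pb not without untreated replicate 2 (-0.12) or TGFβ replicate 3 (-0.11), nor with an offset for gene length and GC content (-0.13, adjusted p 0.0505). The 3 genes for the c subunit, whose mature proteins are alike and form the membrane ring, did not share a call: Atp5g1 gave -0.23 ± 0.091 (adjusted p 0.0412), Atp5g3, at 204 CPM per kilobase the highest of the 3, gave -0.068 ± 0.056 (adjusted p 0.327), and Atp5g2 gave -0.0072 ± 0.13. The Atp5g1 call was lost without any 1 of 8 libraries, and its change was -0.10 without untreated replicate 2. Summed over 17 genes, complex V stood at 2435 ± 169 CPM (SD, n = 3) in untreated and 2038 ± 62.0 CPM in TGFβ cells.

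In complex I the genes that fell with TGFβ lay in both the core, which carries out electron transfer, and the accessory shell. Of 7 nuclear core subunits, 3 were called lower: Ndufs1 and Ndufv2, which hold iron-sulfur clusters, and Ndufs7, which holds the last cluster before ubiquinone. Ndufs1 stood at 117, 109 and 108 CPM in untreated and 90.4, 91.4 and 81.9 CPM in TGFβ libraries (-0.34 ± 0.060, adjusted p 3.62e-05), so that the lowest untreated library lay above the highest TGFβ library. The Ndufs7 change of -0.26 shrank to -0.12 and lost its call without untreated replicate 2 (adjusted p 0.19), and it also lost its call without TGFβ replicate 2 (-0.24) or 3 (-0.24). Among the core genes that were not called, Ndufv1, the NADH-binding subunit, gave -0.15 ± 0.065, Ndufs3 gave 0.14 ± 0.15 and Ndufs8 gave -0.028 ± 0.070. Of 31 accessory subunits, 10 were lower and 2 higher. Ndufa13, also known as GRIM-19, stood at 26.4, 33.2 and 27.2 CPM without and 20.1, 21.7 and 20.4 CPM with TGFβ (-0.48 ± 0.084, adjusted p 3.09e-05). Ndufb8, a subunit often used as a marker of assembled complex I, stood at 72.96, 90.7 and 67.8 CPM without and 56.98, 57.3 and 59.4 CPM with TGFβ (-0.42 ± 0.081, adjusted p 0.000181). For both genes the 3 TGFβ libraries lay within 2.5 CPM of each other and below all untreated libraries. Ndufs5, at -0.66, shares its reads with a single-exon copy and is taken up with the copies. The 2 accessory genes that rose were Ndufb1 (0.25 ± 0.086, adjusted p 0.0175) and Ndufa4 (0.36 ± 0.10, adjusted p 0.00384), whose protein is now counted to complex IV. The Ndufa4 call was lost without the 5 libraries high in mitochondrial rRNA (0.26, adjusted p 0.179) and with an offset for gene length and GC content (0.24, adjusted p 0.131). The Ndufb1 call was lost without untreated replicate 3 (0.22) or TGFβ replicate 2 (0.17) and with that offset (0.19, adjusted p 0.0827).

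Among the assembly factors, Ndufaf7, a methyltransferase that acts during assembly, fell from 12.6, 15.1 and 15.8 CPM to 8.91, 8.30 and 8.88 CPM with TGFβ. Its log2 fold change of -0.74 ± 0.10 (adjusted p 1.71e-06) was the largest fall of any member in that comparison, and all TGFβ libraries lay below all untreated ones. Ndufaf1, an early assembly factor, rose by 0.27 ± 0.10 (adjusted p 0.0249), but not without untreated replicate 3 (0.18) or TGFβ replicate 2 (0.21). The other 6 assembly factors were not called.

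Complex III passes electrons from ubiquinol to cytochrome c, and its genes were lower with TGFβ without exception in sign, 4 of 8 past the test. The main change was in Uqcrfs1, the Rieske iron-sulfur protein that takes the electron from ubiquinol (chr13:30723448-30729345 on the minus strand, GRCm39, 2 exons). It stood at 135, 148 and 134 CPM in untreated and 100.1, 89.5 and 92.9 CPM in TGFβ libraries. The groups were far apart, the lowest untreated library exceeding the highest TGFβ library by more than the spread within either, with a log2 fold change of -0.56 ± 0.053 and an adjusted p of 1.51e-09. The 2 core proteins followed with smaller falls, -0.25 ± 0.063 for Uqcrc1 (adjusted p 0.00182) and -0.21 ± 0.053 for Uqcrc2 (adjusted p 0.00151), and the hinge protein Uqcrh, which docks cytochrome c1, gave -0.25 ± 0.071 (adjusted p 0.00453). Uqcrb, Uqcrq, Uqcr10 and Uqcr11 lay between -0.15 and -0.080 and were not called. The summed level of complex III was 629.7 ± 50.2 CPM in untreated and 519.5 ± 15.0 CPM in TGFβ cells.

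In complex IV 7 of 14 genes fell and 2 rose with TGFβ. Those that fell were Cox4i1, Cox6a1, Cox6b1, Cox7a2, Cox7b and Cox8a and the Cox7a2-like gene Cox7a2l, and those called higher were the isoforms Cox6b2 and Cox4i2, the latter a member only through libraries with TGFβ, as given with its counts. Cox4i1 stood at 313, 358 and 301 CPM in untreated and 272, 262 and 278 CPM in TGFβ libraries (-0.26 ± 0.051, adjusted p 0.000131). Cox6b1, which sits at the dimer interface on the intermembrane side, stood at 73.2, 86.8 and 69.8 CPM without and 62.1, 59.95 and 51.6 CPM with TGFβ (-0.40 ± 0.076, adjusted p 9.68e-05). In both genes all TGFβ libraries were below all untreated libraries. Cox7a2 gave -0.43 ± 0.083 (adjusted p 0.000122). Cox7b gave -0.37 ± 0.14 (adjusted p 0.0332), a call lost without untreated replicate 2 (-0.23), TGFβ replicate 1 (-0.36) or TGFβ replicate 3 (-0.32). Cox5a, at 0.0032 ± 0.067, Cox5b, at -0.22 ± 0.17, and Cox6c, at 0.29 ± 0.17, did not pass the test. Neither did Cox7a1, at -0.32 ± 0.54, nor Cox7c, at 0.43 ± 0.20 (adjusted p 0.0721). Cox7c was called higher without untreated replicate 2 (0.54), TGFβ replicate 3 (0.55) or the 5 libraries high in mitochondrial rRNA (0.76), and gave -0.02 once summed with its single-exon copy.

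Cox6b2 is the isoform of Cox6b1 best known from testis (chr7:4754789-4756093 on the minus strand, GRCm39, 3 exons). It was counted at 3.24, 2.12 and 1.68 CPM in untreated, 10.99, 10.8 and 13.3 CPM in TGFβ, 1.87, 1.41 and 1.72 CPM in Pam3 and 5.12, 7.02 and 5.94 CPM in Pam3+TGFβ libraries. Both groups with TGFβ lay above both groups without it, and Pam3+TGFβ lay below TGFβ alone. TGFβ raised it by 2.31 ± 0.18 on the log2 scale (adjusted p 9.26e-11), a 4.97-fold difference, without Pam3, and by 1.86 ± 0.20 (adjusted p 2.26e-08) with Pam3. Pam3 lowered it in TGFβ-cultured cells (-0.96 ± 0.17, adjusted p 5.45e-05), and in cells without TGFβ the change of -0.50 ± 0.21 did not pass the test (adjusted p 0.118), though it was called without untreated replicate 3. The test of the difference between those 2 Pam3 responses gave -0.46 ± 0.27 (95% interval -1.02 to 0.11, adjusted p 0.307). Without untreated replicate 1 this difference was called, so the result depended on a single library. Of the counts of both isoforms together, Cox6b2 made up 2.99 ± 1.08% (SD, n = 3) in untreated, 16.9 ± 3.07% in TGFβ, 2.18 ± 0.333% in Pam3 and 8.86 ± 1.55% in Pam3+TGFβ cells. Cox4i2, a form known from lung and hypoxic cells, was far rarer, with 4, 4 and 4 counts in the untreated libraries and 17, 15 and 29 counts in the TGFβ libraries. It had 6, 10 and 1 counts in Pam3 and 12, 10 and 20 in Pam3+TGFβ libraries, so that 6 of the 7 libraries that reached the count minimum were cultured with TGFβ. As it passed the minimum through the groups where it is high, its fitted change (2.31 ± 0.68, adjusted p 0.00606) is given as a description, and with a minimum of 10 counts in every library it is not tested. It never exceeded 0.272% of the counts of Cox4i1 and Cox4i2 together. Its call was lost without the 5 libraries high in mitochondrial rRNA (1.85, adjusted p 0.167).

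**Figure D2:**
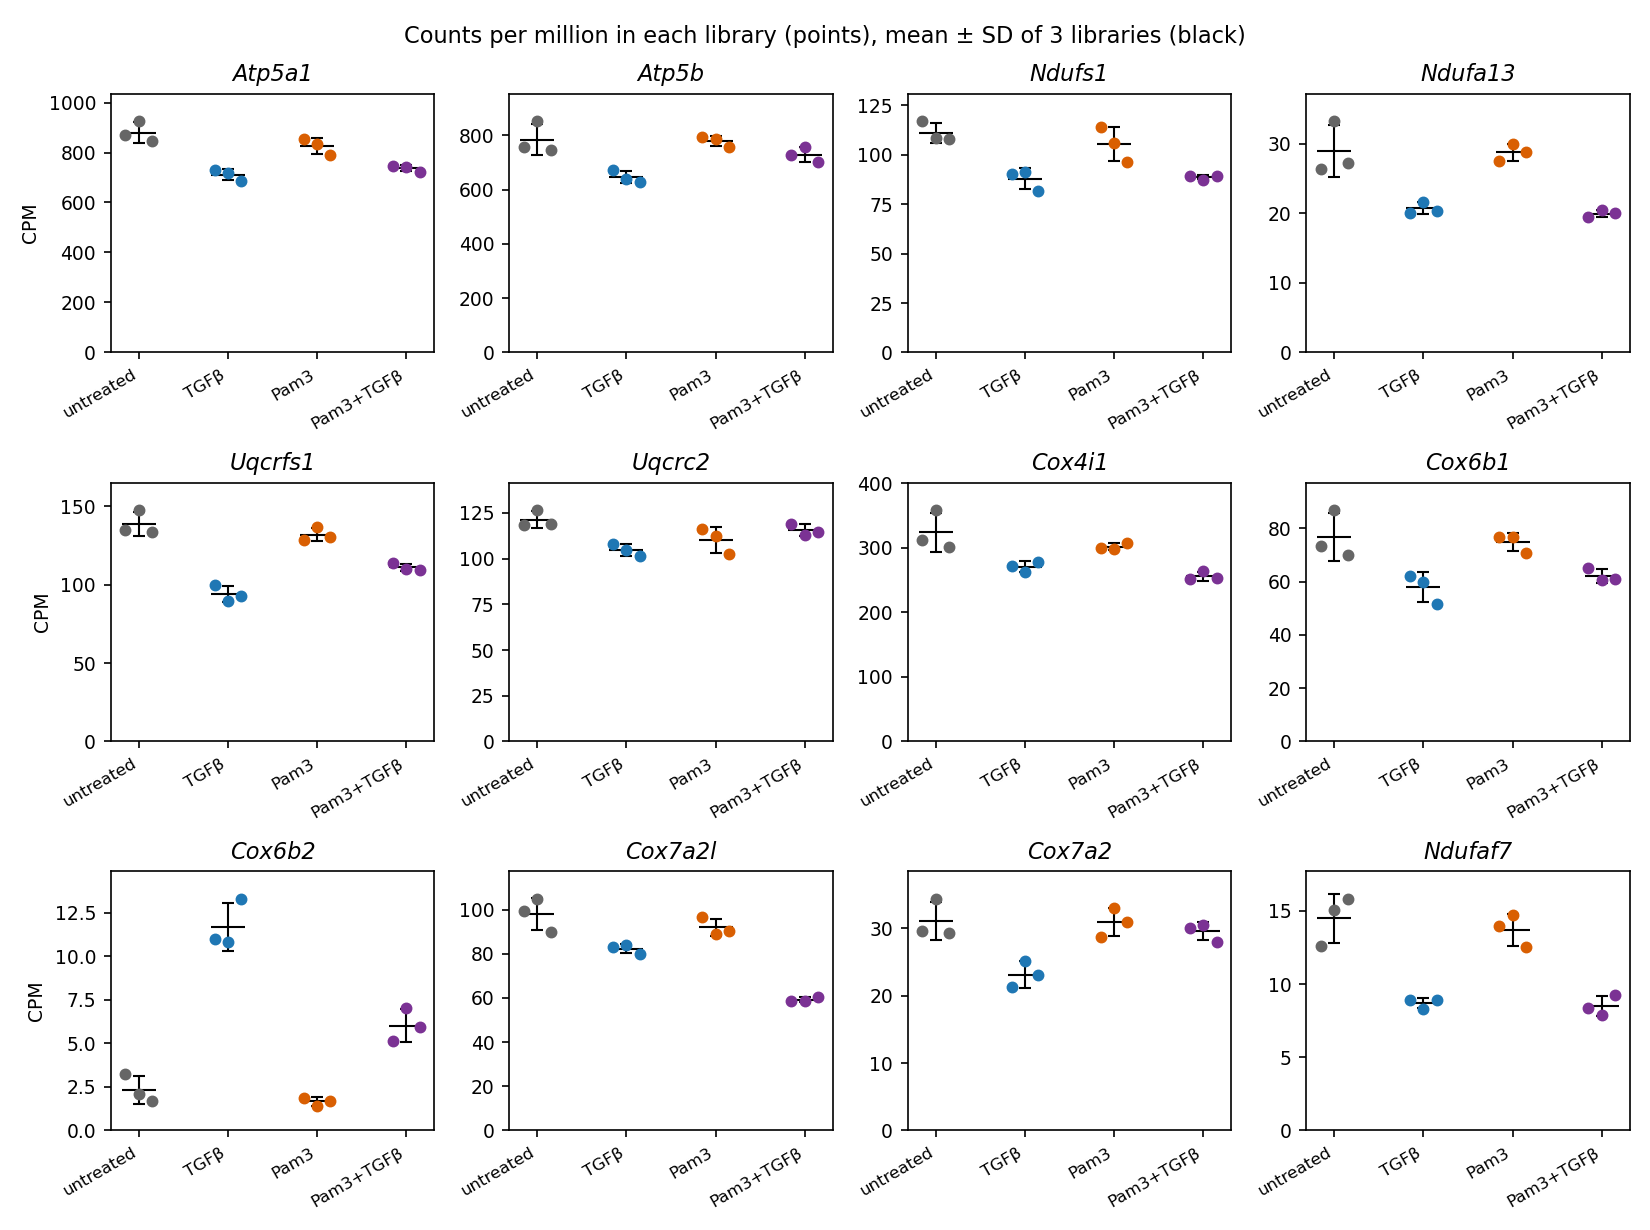
Level in CPM (vertical axis, from 0) of 12 members in each of the 12 libraries (points, coloured by group), with the mean and SD of 3 libraries in black. Uqcrfs1, Ndufa13 and Ndufaf7 are lower in both groups with TGFβ, Cox6b2 is higher in both, and Cox7a2l is lowest in the 3 Pam3+TGFβ libraries, at 58.5 to 60.5 CPM.

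With Pam3 present, TGFβ again lowered more members than it raised. Comparing Pam3+TGFβ with Pam3, 29 of 91 members were called lower and 1 higher, where 23.8% of all tested genes were called lower and 21.5% higher, and the members' median was -0.14 against -0.0017 over all tested genes. This comparison shares no library with that of TGFβ and untreated cells. In both comparisons 21 members were lower and 1, Cox6b2, was higher, 17 were called only without Pam3, 8 only with Pam3, and 0 changed in opposite directions. Those lower in both were 23.1% of the members and 18.8% of all tested genes, those higher in both 1.10% and 14.4%, those called only without Pam3 18.7% and 15.9%, and those called only with Pam3 8.79% and 10.2%. With Pam3 present, 11 of 38 complex I subunits, 2 of 8 assembly factors, 3 of 8 genes of complex III, 8 of 14 of complex IV and 5 of 17 of complex V were lower. Ndufa13 stood at 27.5, 29.9 and 28.8 CPM in Pam3 and 19.4, 20.5 and 19.97 CPM in Pam3+TGFβ libraries (-0.53 ± 0.085, adjusted p 1.17e-05), Ndufaf7 gave -0.69 ± 0.11 (adjusted p 5.39e-06) and Ndufb8 -0.45 ± 0.081 (adjusted p 8.22e-05), each close to its value without Pam3. Cox4i1 gave -0.24 ± 0.051 (adjusted p 0.000403). In the F1 head of complex V 2 of 5 genes were called, Atp5d at -0.23 ± 0.061 and Atp5a1 at -0.17 ± 0.052 (-0.14 and not called without Pam3 replicate 1, adjusted p 0.0536), while Atp5b gave -0.10 ± 0.055 (adjusted p 0.167). Of the genes called only with Pam3 present, Ndufc1, a small accessory subunit, gave -0.63 ± 0.16, Cox6c gave -0.52 ± 0.17, the membrane subunit gene Atp5j2 gave -0.57 ± 0.14, Uqcr11 gave -0.44 ± 0.18 and the assembly factor Ndufaf4 gave -0.25 ± 0.083. Of these 5, Ndufc1 and Atp5j2 were called in each of the 12 fits that left out 1 library, while Cox6c was not called in 3 (-0.47 to -0.42), Uqcr11 not in 6 (-0.45 to -0.35) and Ndufaf4 not in 3 (-0.22 to -0.19). Without Pam3 replicate 1 the count called lower was 19 of 91, where 21.3% of all tested genes were called lower. In this comparison 2 members were higher without Pam3 replicate 3, Pam3+TGFβ replicate 1 or untreated replicate 2. Those fits called 19.4%, 19.1% and 22.8% of all tested genes higher. Without the 5 libraries high in mitochondrial rRNA, which leaves 1 Pam3 library with its spread taken from the other groups, 16 members were called lower, where 16.7% of all tested genes were. Lost were the calls of Ndufc1 (-0.52, adjusted p 0.0930), Atp5j2 (-0.45, adjusted p 0.111), Cox4i1 (-0.21, adjusted p 0.0602), Atp5d (-0.16, adjusted p 0.170), Cox5a, Cox6a1, Uqcrfs1, Uqcrh, Atp5pb, Ndufa1, Ndufb2, Ndufb7 and Ndufb10. With an offset for gene length and GC content the calls of Cox6a1 (-0.24, adjusted p 0.141), Cox6b1 (-0.26, adjusted p 0.0972), Cox8a (-0.37, adjusted p 0.0585) and Ndufb7 were lost. Of the 7 complex IV genes that fell with TGFβ alone, Cox4i1, Cox7b and Cox7a2l then kept a call with Pam3 present.

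Of the 21 members lower in both TGFβ comparisons, 18 had a promoter entry in RefSeq's table, and 7 of these held at least 1 of 4 motifs searched: NRF1 in Cox6a1, ETS in Uqcrh and Cox8a, and YY1 in Atp5j, Atp5pb, Ndufa9 and Ndufb8, with ERR in 0. The other 11 held none. From the 7, 1 gene for each motif found, chosen with these matches known, is shown with the 250 bases before its transcription start, as RefSeq gives them for the build GRCm38.p6, because it holds a motif of a factor known to drive respiratory genes, and Cox6b2 is shown as the member that rose. Bases are in lower case and motif letters in capitals. The motifs searched on both strands of windows from 250 bases before to 50 after the start were GCATGCGC (NRF1, nuclear respiratory factor), CCGGAAGT (ETS factors, which include GABPA), AAGATGGC (YY1) and CAAGGTCA (ERR, estrogen-related receptors). In the Cox6a1 window GCATGCGC and its reverse complement overlap, so 10 letters are in capitals.
Cox6a1 (chr5:115348959-115349208, minus strand): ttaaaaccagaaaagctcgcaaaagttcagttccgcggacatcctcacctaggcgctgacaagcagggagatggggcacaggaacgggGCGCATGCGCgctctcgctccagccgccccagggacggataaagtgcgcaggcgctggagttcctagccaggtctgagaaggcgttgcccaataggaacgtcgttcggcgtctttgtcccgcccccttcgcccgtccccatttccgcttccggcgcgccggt
Uqcrh (chr4:116075071-116075320, minus strand): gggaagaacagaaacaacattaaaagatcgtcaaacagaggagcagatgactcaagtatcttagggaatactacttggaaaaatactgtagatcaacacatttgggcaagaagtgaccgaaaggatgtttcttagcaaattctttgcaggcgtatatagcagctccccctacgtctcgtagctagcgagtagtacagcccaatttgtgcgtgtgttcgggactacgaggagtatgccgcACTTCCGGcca
Atp5j (chr16:84834977-84835226, minus strand): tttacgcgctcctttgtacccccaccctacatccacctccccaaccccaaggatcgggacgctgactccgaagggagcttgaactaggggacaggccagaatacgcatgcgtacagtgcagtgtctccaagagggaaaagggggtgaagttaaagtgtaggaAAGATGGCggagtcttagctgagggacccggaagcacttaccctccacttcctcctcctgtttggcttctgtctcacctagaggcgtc
Cox6b2 (chr7:4753095-4753344, minus strand): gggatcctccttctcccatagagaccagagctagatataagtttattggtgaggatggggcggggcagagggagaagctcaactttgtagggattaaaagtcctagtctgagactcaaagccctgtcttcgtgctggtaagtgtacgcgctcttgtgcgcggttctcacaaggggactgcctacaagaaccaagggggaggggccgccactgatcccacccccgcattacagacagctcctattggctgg
The Cox6a1 capitals are the NRF1 motif, the Uqcrh capitals are CCGGAAGT read on the opposite strand and end 4 bases before the start, the Atp5j capitals are the YY1 motif, while a further RefSeq start of Atp5j (entry chr16:84835626-84835875, minus strand) held none of the 4, and the Cox6b2 window held none of the 4 motifs. Of the 91 members, 73 had a promoter entry, with 78 entries in all, and 28 of these held at least 1 motif. GCATGCGC was in 14.1% of the members' entries and in 2.71% of all 32851 promoter entries, AAGATGGC in 14.1% and 2.75%, CCGGAAGT in 6.41% and 3.89%, and CAAGGTCA in 3.85% and 1.56%. A match describes letters in a window and does not show that a factor binds there.

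Pam3 alone changed few members by this test. Of the 91 members, 4 were called lower and none higher, where 8.66% of all tested genes were called lower and 9.62% higher, and the members' median was -0.028 against 4e-04 over all tested genes. These included Ndufa10 (-0.25 ± 0.060, adjusted p 0.00316), Atp5c1 (-0.23 ± 0.062, adjusted p 0.0105) and Ndufb10 (-0.21 ± 0.071, adjusted p 0.0439). Ndufa10, an accessory subunit of complex I, stood at 90.7, 101 and 90.7 CPM in untreated and 81.2, 74.8 and 81.4 CPM in Pam3 libraries, and the groups did not overlap. It was called in each of the 12 fits that left out 1 library but not without the 5 libraries high in mitochondrial rRNA (-0.25, adjusted p 0.139). Atp5c1 was not called without Pam3 replicate 3 (-0.20), and Ndufb10 not without untreated replicate 1 (-0.20) or 2 (-0.17) or Pam3 replicate 1 (-0.23), 2 (-0.19) or 3 (-0.21). The summed levels of the complexes differed between untreated and Pam3 cells by less than the spread of the untreated libraries, at 1425 ± 121 and 1332 ± 15.1 CPM for complex I and 833.8 ± 83.8 and 806.1 ± 6.91 CPM for complex IV. Here single libraries decided the count. Without untreated replicate 3, 13 members were lower and the median was -0.096, where 9.07% of all tested genes were lower, and without untreated replicate 2, 2 were lower, 2 higher and the median was 0.065. The count lower was 2 without Pam3 replicate 2, 1 without Pam3 replicate 3 and 1 without the 5 libraries high in mitochondrial rRNA. That 1 was Ndufs7 (-0.45), and none of the 4 calls stayed in that fit, which compares 1 Pam3 library with 2 untreated ones and called 3.19% of all tested genes lower.

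In cells cultured with TGFβ, 16 members were called for Pam3, in both directions. Between Pam3+TGFβ and TGFβ cells, 11 of 91 were called lower and 5 higher, where 18.1% of all tested genes were called lower and 20.4% higher, so both shares (12.1% and 5.49%) lay under the background. The median over the members was -0.037 and over all tested genes -0.018. With upper-quartile scaling the split was 20 lower and 3 higher, where 23.7% of all tested genes were called lower and 16.8% higher. The 5 that rose were Uqcrfs1 and Uqcrc2 of complex III, Cox7a2 of complex IV, Atp5b of complex V and the assembly factor Ndufaf3. Uqcrfs1 rose from 100.1, 89.5 and 92.9 CPM to 114, 110.2 and 109 CPM (0.24 ± 0.053, adjusted p 0.000668), and in untreated cells it had stood at 135, 148 and 134 CPM, above both. With an offset for gene length and GC content the change was 0.086 and was not called. Cox7a2 stood at 21.2, 25.1 and 23.0 CPM in TGFβ and 30.1, 30.5 and 28.01 CPM in Pam3+TGFβ libraries (0.35 ± 0.083, adjusted p 0.00136). Atp5b gave 0.17 ± 0.055, not called without TGFβ replicate 2 (0.15) or 3 (0.14) or Pam3+TGFβ replicate 1 (0.16) or 2 (0.13). Ndufaf3 gave 0.37 ± 0.11, not called without TGFβ replicate 3 (0.33) or Pam3+TGFβ replicate 2 (0.29), and Uqcrc2 gave 0.14 ± 0.053, not called without any 1 of 7 libraries. The count higher was 3 without TGFβ replicate 2 or Pam3+TGFβ replicate 1 and 2 without TGFβ replicate 3 or Pam3+TGFβ replicate 2.

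Of the 11 genes that fell in that comparison, 5 were of complex IV, Cox6b2 among them. Cox7a2l, which codes for the supercomplex factor SCAF1 that joins complexes III and IV (chr17:83765970-83824759 on the minus strand, GRCm39, 3 exons), stood at 99.3, 105 and 90.02 CPM in untreated, 82.99, 83.9 and 79.9 CPM in TGFβ, 96.5, 88.9 and 90.5 CPM in Pam3 and 58.8, 58.5 and 60.5 CPM in Pam3+TGFβ libraries. The Pam3+TGFβ libraries lay below all 9 others, and those 3 values spanned under 2 CPM. In TGFβ-cultured cells Pam3 lowered it (-0.47 ± 0.058, adjusted p 2.6e-07). TGFβ lowered it in Pam3-treated cells (-0.63 ± 0.058, adjusted p 1.13e-09) and in cells without Pam3 (-0.25 ± 0.057, adjusted p 0.000623). Cox5a, a matrix-side subunit of complex IV, gave -0.25 ± 0.067 (adjusted p 0.00399), and Ndufa1 gave -0.36 ± 0.089 (adjusted p 0.00201), or -0.26 with no call under the length and GC offset. Cox6c, Cox7c, Atp5j2, Ndufs6, Ndufb2, Ndufc1 and Ndufaf1 were also called lower, each at under 9 CPM per kilobase, and Cox6c kept its call in all 12 fits that left out 1 library. Those of Atp5j2 (-0.37 without Pam3+TGFβ replicate 3), Cox7c (-0.46 without TGFβ replicate 2, -0.54 without Pam3+TGFβ replicate 1), Ndufc1 (-0.42 without Pam3+TGFβ replicate 1, -0.37 without replicate 3), Ndufs6 (-0.44 without TGFβ replicate 1 or 2 or Pam3+TGFβ replicate 3), Ndufb2 (-0.49 to -0.34 in 4 fits) and Ndufaf1 (-0.28 to -0.20 in 3 fits) did not. The count lower was 7 without TGFβ replicate 2 or Pam3+TGFβ replicate 1, and the members' median was -0.115 without Pam3+TGFβ replicate 2. Without the 5 libraries high in mitochondrial rRNA, which leaves 1 TGFβ library with its spread taken from the other groups, 7 members were called lower and 1, Uqcrfs1, higher, where 9.79% of all tested genes were lower and 13% higher. Lost were the calls of Cox7a2 (0.24, adjusted p 0.158), Atp5b (0.20, adjusted p 0.106), Ndufaf3 (0.29, adjusted p 0.226), Uqcrc2 (0.15, adjusted p 0.214), Atp5j2 (-0.46, adjusted p 0.122), Ndufc1 (-0.46, adjusted p 0.171), Ndufs6 (-0.54, adjusted p 0.0867) and Ndufb2 (-0.65, adjusted p 0.0537).

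The calls were also counted by level. Of 55 members with introns at 10 CPM per kilobase or more, TGFβ alone lowered 31 and raised 2, and of 28 below that level it lowered 1 and raised 3. Among all tested genes 37.8% of those at 10 CPM per kilobase or more and 23.8% of those below were called lower in that comparison, and 27.0% and 21.2% higher. With Pam3 present, TGFβ lowered 22 and raised 0 of the 55 and lowered 7 and raised 1 of the 28, where 28.6% and 22.4% of all tested genes were called lower and 29.8% and 17.5% higher. For Pam3 in TGFβ-cultured cells the members' counts were 3 lower and 4 higher of 55 and 8 lower and 1 higher of 28, where 20.5% and 17.9% of all tested genes were called lower and 32.4% and 14.0% higher. The 10 CPM per kilobase bound was chosen with these values known, and the difference between the bins was not tested. Standard errors varied on both sides of the bound. For Pam3 in TGFβ-cultured cells they were 0.079 for Ndufs4, 0.17 for Ndufb2, 0.31 for Ndufb4 and 0.60 for Cox4i2 below it. Above it they were 0.055 for Atp5b and 0.14 for Cox7b. The part of precision in the counts of calls was not tested.

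**Figure D3:**
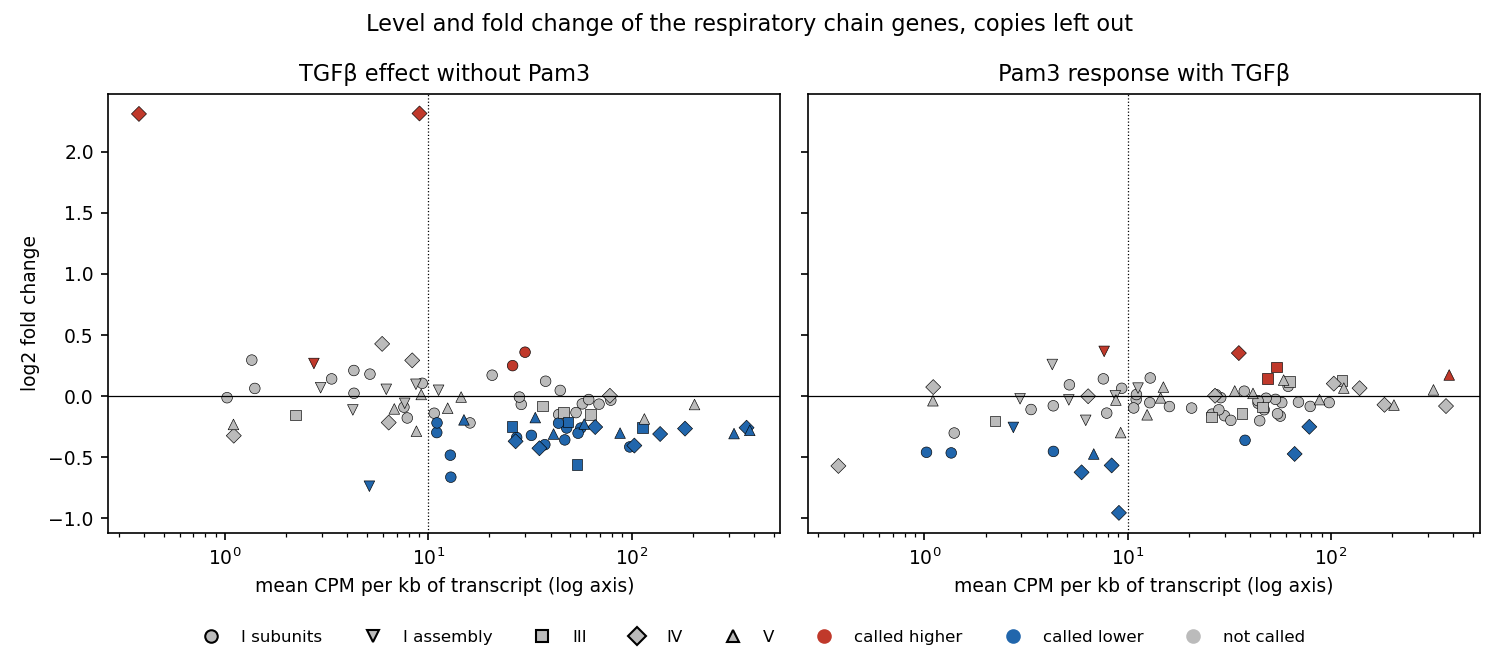
Log2 fold change (vertical axis) against mean level in CPM per kilobase of transcript (horizontal log axis) for members with introns and a known length, with the TGFβ effect on the left and the Pam3 response in TGFβ-cultured cells on the right; marker shapes give the complex and colours the call. On the left the blue points lie right of the dotted line at 10 CPM per kilobase except Ndufaf7, and on the right 8 of 11 lie left of it.

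For 8 members the Pam3 response itself differed between cells with and without TGFβ, as tested by the interaction, which subtracts the response in cells without TGFβ from that in TGFβ-cultured cells. The interaction was lower for 5 and higher for 3 of 91 members, where 5.67% of all tested genes were called lower and 10.3% higher, and the median was -0.028 against 0.0045 over all tested genes. Cox7a2l (-0.38 ± 0.081, adjusted p 0.00141), Cox6c (-0.81 ± 0.24, adjusted p 0.0186), Ndufa1 (-0.45 ± 0.13, adjusted p 0.0149), Ndufs6 and Ndufc1 were on the lower side, and Uqcrfs1 (0.31 ± 0.074, adjusted p 0.00385), Uqcrc2 (0.28 ± 0.074, adjusted p 0.00981) and Cox7a2 (0.36 ± 0.12, adjusted p 0.0357) on the higher side. The 3 genes on the higher side had their highest mean level in untreated cells and their lowest with TGFβ alone. Ndufa1, a small subunit of the membrane arm on the X chromosome, stood at 16.2, 20.4 and 19.2 CPM in TGFβ, 18.1, 17.04 and 19.3 CPM in Pam3 and 14.95, 14.3 and 14.2 CPM in Pam3+TGFβ libraries, so that the cells given both lay below either alone. Its interaction was -0.38 without TGFβ replicate 2 (adjusted p 0.0506) and -0.24 with the length and GC offset (adjusted p 0.381). Over the fits that left out 1 library the count on the lower side ran from 2, without TGFβ replicate 2, to 8, without untreated replicate 2, with 3 without untreated replicate 3, TGFβ replicate 1, any 1 Pam3 library or Pam3+TGFβ replicate 1 or 3. On the higher side it ran from 2, without untreated replicate 2, TGFβ replicate 1 or 3, Pam3 replicate 3 or Pam3+TGFβ replicate 1 or 2, to 5, without untreated replicate 3 or Pam3+TGFβ replicate 3. The Cox6c interaction was -0.64 with that offset (adjusted p 0.0912). Most fits that left out 1 library lost the calls of Cox7a2, Ndufs6 and Ndufc1, as given further on. Upper-quartile scaling also lost that of Cox7a2. Without the 5 libraries high in mitochondrial rRNA, which leaves 1 TGFβ and 1 Pam3 library with their spread taken from the other groups, Uqcrfs1 was the 1 member called, where 4.15% of all tested genes were called higher and 1.25% lower, and Cox7a2l gave -0.41 (adjusted p 0.0541).

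For 6 families of small subunits most counts lay on single-exon copies. The aligner places reads without splitting them at introns, and a read over an exon junction can then land on an intronless copy. The copies held 67.3% of the counts of Ndufa11 and its copy, 95.3% of those of Ndufb4 (48.9% on Ndufb4b and 46.4% on Ndufb4c), 81.2% for Ndufs6, 66.8% for Ndufab1, 71.8% for Ndufs5 and 70.0% for Cox7c, whose copy Cox7c-ps1 is not a member. Counts of a gene and its copies can therefore not be told apart. Summed over the family, Ndufs5 was still lower with TGFβ (-0.28, adjusted p 0.00536, against -0.66 for the gene row alone), while the Pam3 response of Cox7c in TGFβ-cultured cells went from -0.62 to -0.024 (adjusted p 0.891) and that of Ndufs6 from -0.46 to -0.19 (adjusted p 0.0754). The Ndufs6 interaction went from -0.68 (adjusted p 0.0380) to -0.22 (adjusted p 0.263). Ndufs6 thus lost and Ndufs5 kept its call when the copies were added, and Ndufa11 (-0.23, adjusted p 0.0241) and Ndufb4 (-0.21, adjusted p 0.0335) gained a call for lower counts with TGFβ that their gene rows alone did not have.

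**Figure D4:**
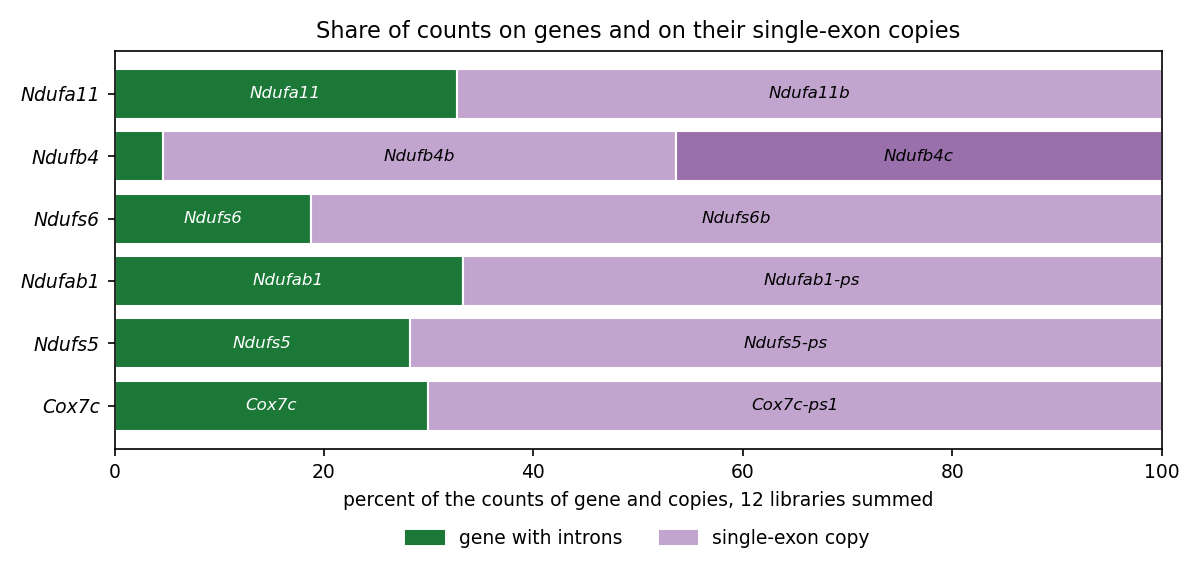
Share, in percent of the counts summed over 12 libraries (horizontal axis), that lay on the gene with introns (green) and on its single-exon copies (purple) in 6 families (rows). In each family the copies hold more than the gene, from 66.8% for Ndufab1 to 95.3% for Ndufb4.

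Outside the set, the paralog of Ndufa4 moved more than any member did with Pam3. AA467197, also named Nmes1 (chr2:122478879-122483519 on the plus strand, GRCm39), is known as a gene induced in activated macrophages whose protein can replace the Ndufa4 protein in complex IV, and its symbol keeps it from being a member. It stood at 9.89, 11.9 and 13.1 CPM in untreated, 3.04, 3.46 and 2.86 CPM in TGFβ, 41.3, 42.02 and 47.3 CPM in Pam3 and 66.4, 55.3 and 52.9 CPM in Pam3+TGFβ libraries, 4 ranges with no overlap. Without Pam3, TGFβ lowered it (-1.90 ± 0.12, adjusted p 2.34e-12), and in Pam3-treated cells TGFβ raised it (0.42 ± 0.095, adjusted p 0.000772). Pam3 raised it by 1.90 ± 0.10 in cells without and by 4.22 ± 0.12 in cells with TGFβ, and these responses differed by 2.31 ± 0.15 (adjusted p 6.41e-11). Ndufa4 itself stood at 13.6, 16.6 and 11.7 CPM in untreated, 18.4, 18.02 and 17.5 CPM in TGFβ, 15.7, 16.01 and 14.3 CPM in Pam3 and 16.3, 15.9 and 16.04 CPM in Pam3+TGFβ libraries, and its rise with TGFβ alone was its 1 call. Without untreated replicate 2, Ndufa4 was also called for Pam3 in cells without TGFβ and for the interaction. AA467197 made up 45.6 ± 6.26% of the counts of the pair in untreated, 14.8 ± 1.13% in TGFβ, 73.9 ± 2.51% in Pam3 and 78.2 ± 1.86% in Pam3+TGFβ cells (SD, n = 3). The bases before its start, shown because the data single the gene out, held none of the 4 motifs.
AA467197 (chr2:122637637-122637886, plus strand, GRCm38.p6): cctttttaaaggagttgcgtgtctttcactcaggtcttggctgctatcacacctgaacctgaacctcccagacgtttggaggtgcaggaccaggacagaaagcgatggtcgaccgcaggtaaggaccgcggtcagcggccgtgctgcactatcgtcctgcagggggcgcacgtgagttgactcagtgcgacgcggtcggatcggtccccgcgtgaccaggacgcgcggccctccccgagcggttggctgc

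**Figure D5:**
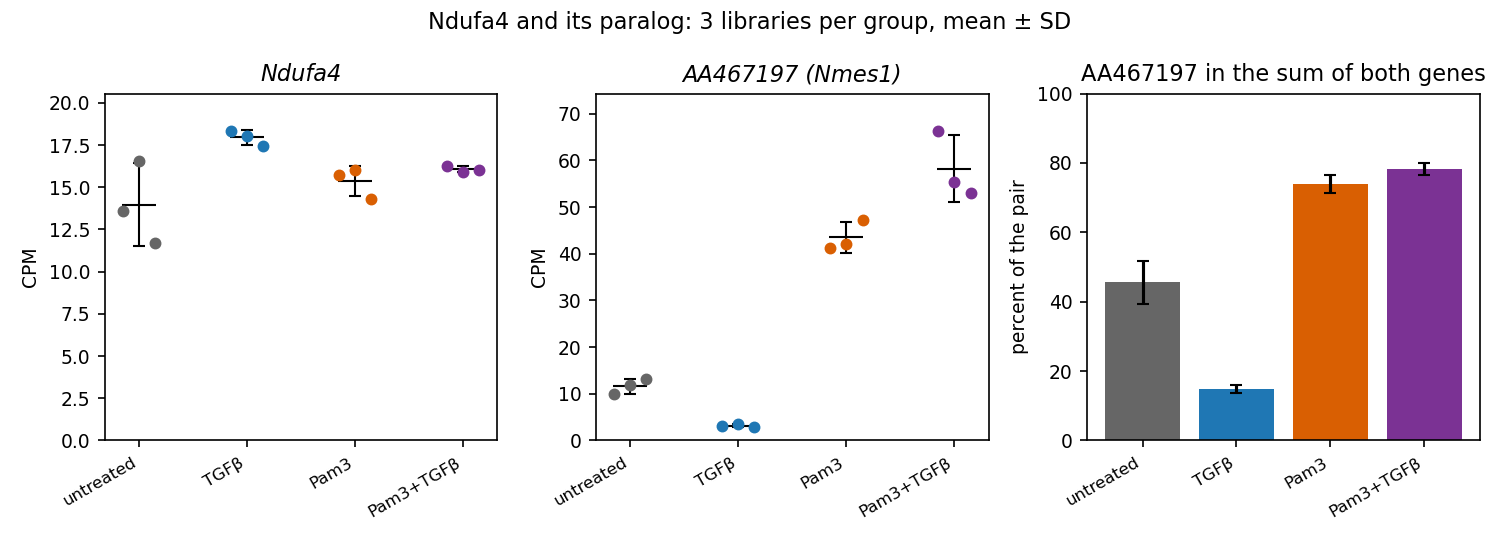
Level in CPM of Ndufa4 (left) and AA467197 (middle) in each library, with mean and SD of 3 libraries, and the percent of the pair's counts on AA467197 (right, bars with SD). AA467197 ranges from 2.86 CPM in a TGFβ library to 66.4 CPM in a Pam3+TGFβ library, while Ndufa4 stays between 11.7 and 18.4 CPM.

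Other genes of the pathway were taken from lists. Complex II is not among the members, and 5 of 8 genes of the list were called lower without Pam3 (median -0.26) and 5 of 8 with it (median -0.19), where 28.1% and 23.8% of all tested genes were called lower. Sdhd, a membrane anchor of succinate dehydrogenase, stood at 167, 183 and 162 CPM in untreated and 127, 134 and 125 CPM in TGFβ libraries (-0.41 ± 0.056, adjusted p 8.65e-07), and Sdha, Sdhb and Sdhc gave -0.25 ± 0.042, -0.33 ± 0.057 and -0.29 ± 0.061. Sdha and Sdhd were also called lower with Pam3 alone (-0.15 ± 0.042 and -0.17 ± 0.056), Sdha not without Pam3 replicate 3 (-0.14) and Sdhd not without untreated replicate 2 (-0.11) or Pam3 replicate 3 (-0.10). The 13 mitochondrially encoded subunits split, with 3 lower and 3 higher under TGFβ alone, or 23.1% each way beside 28.1% and 22.9% of all tested genes. COX1 (-0.14 ± 0.046), ND5 (-0.31 ± 0.057) and ND6 (-0.23 ± 0.068) fell, and ND3 (0.18 ± 0.044), ND4L (0.24 ± 0.062) and ATP8 (0.52 ± 0.17) rose. Of these, COX1 was not called without untreated replicate 3 (-0.12) or TGFβ replicate 1 (-0.12), ND6 not without TGFβ replicate 3 (-0.16) and ATP8 not without untreated replicate 1 (0.48) or 2 (0.47) or TGFβ replicate 2 (0.37). Their summed level was 33800 ± 1420 CPM in untreated and 31920 ± 906.3 CPM in TGFβ cells, and the ranges of 32310 to 35140 and 30900 to 32640 CPM overlapped. ND5 was lower with TGFβ in Pam3-treated cells too (-0.17 ± 0.057, adjusted p 0.0169), but not without Pam3 replicate 1 (-0.12), and ND4L had an interaction of -0.33 ± 0.087 (adjusted p 0.00961). Neighbouring and overlapping mitochondrial genes come from shared precursors, so reads at their ends cannot be told apart, and ND6 is coded on the opposite strand. The calls of Sdha and Sdhd with Pam3 alone (-0.15 each), of Sdha with TGFβ in Pam3-treated cells (-0.15) and of COX1 (-0.10) were lost without the 5 libraries high in mitochondrial rRNA.

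The remaining lists were mixed, and their counts stand beside 28.1% lower and 22.9% higher of all tested genes with TGFβ alone and 23.8% and 21.5% with TGFβ in Pam3-treated cells. Of 24 tested complex IV assembly factors, 10 were lower and 2 higher with TGFβ alone and 6 lower and 3 higher with TGFβ in Pam3-treated cells. Of 12 tested complex I assembly factors with other symbols, 1 was lower and 1 higher with TGFβ alone, and 2 were lower and 2 higher with TGFβ in Pam3-treated cells. Of 21 genes for electron carriers and exchange, 6 were lower and 3 higher with TGFβ alone. With Pam3 in cells without TGFβ, 3 were lower and 2 higher, beside 8.66% and 9.62% of all tested genes. With Pam3 in TGFβ-cultured cells, 5 were lower and 4 higher, beside 18.1% and 20.4%. Cyc1, the cytochrome c1 subunit of complex III, was lower with TGFβ alone (-0.23 ± 0.068, adjusted p 0.00667), though not called without untreated replicate 2 (-0.14) or TGFβ replicate 3 (-0.16). Cycs, the gene of the mobile carrier cytochrome c, was higher with Pam3 in cells without TGFβ (0.30 ± 0.074, adjusted p 0.00466) and in cells cultured with it (0.44 ± 0.074, adjusted p 2.78e-05). The first of these was not called without the 5 libraries high in mitochondrial rRNA (0.29, adjusted p 0.0949).

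The count minimum removed 5 symbols. Cox7b2, Cox8c and Ndufa4l2 had 0 counts in all 12 libraries, Cox8b had at most 3, and Cox6a2, the muscle form of Cox6a1, had 0 to 13. Just inside were Cox4i2 with at least 10 counts in 7 libraries, Atp5k in 9 and Cox7a1 in 10, followed by Atp5md and Ndufb4, which reached 10 in all 12 with as few as 12 and 29. Apart from Cox4i2 none of these 5 was called in any comparison, and the intervals at such counts are wide, such as -2.20 to 0.13 for the Pam3 response of Cox7a1 on the log2 scale.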

How the data were processed

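The mRNA of 12 FLAM libraries was analysed. Per the labels' protocols and the submitters' processing notes, the kit kept strand and the authors processed reads with bcl2fastq 2.20.0, FastQC 0.11.7, Bowtie2 2.4.1, featureCounts from Subread 2.0.0, DESeq2 1.36.0 and R 4.2.1 on GRCm39. The deposited raw counts are whole reads per gene symbol. The deposited normalized values are a signal scaled by the authors and entered only 1 alternative. Which annotation was counted, with which strand option, and what was done with reads of several alignments is not given in the sources used here. Bowtie2 does not split reads over introns.

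From the raw counts, genes were kept with filterByExpr of edgeR 4.0.16 at a minimum count of 10, libraries were scaled with TMM, and the robust quasi-likelihood test was fitted to 4 group means over 12 libraries in R 4.3.3, with 5 contrasts and Benjamini-Hochberg adjustment over 14749 genes. Each adjusted p of the text comes from this edgeR test or, where a setting is named, from its refit under that setting, and ± after a log2 fold change is its standard error. CPM uses the TMM-scaled library sizes, except for the cell type markers, where it uses the unscaled library totals. Reads carry no molecular identifiers, so the number of libraries and the counts limit the precision together. No 2 libraries of a group agreed within sampling noise, with chi-square values over their degrees of freedom from 9.99 to 219.9. In Pam3+TGFβ libraries these ran from 9.99 to 28.01. In each other group 1 pair gave 15.97 to 24.6 and the remaining pairs 132.7 to 219.9. Those groups hold the 5 libraries high in mitochondrial rRNA, and a link was not tested. Alternatives were other scalings, DESeq2 1.42.0, limma-trend of limma 3.58.1 on log2 of the deposited signal plus 1, other filters, a replicate block, fits of 6 libraries, an offset for length and GC content and fits without each library in turn. A covariate for mitochondrial rRNA, leaving out 5 libraries and summing genes with their copies were chosen after seeing the data. The test was checked on simulated counts.

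Lengths, exons and positions come from the canonical transcripts of GENCODE M39 (GRCm39), matched for 89 of 91 members, and promoters from RefSeq (GRCm38.p6). Members and lists were chosen with earlier results of these data known. Named genes were up to 2 called genes with the largest rise and 2 with the largest fall per complex and contrast with at least 10 counts in each library of the higher group, isoform pairs, catalytic subunits, members at the count minimum, and AA467197, the 13 mitochondrially encoded genes, Cyc1, Cycs, Sdha to Sdhd, Ucp2, Hif1a, Ppargc1a, Ppargc1b, Tfam, Nrf1 and Esrra. Others are named where a group of up to 21 is listed, and some genes of these lists are not reported here.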

Additional observations from a re-analysis of the deposited data

Results flagged for a closer look

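A test of the difference between the Pam3 response with and without TGFβ (the edgeR interaction, log2 scale) called 8 members and 3 other genes of the pathway. Of the 91 members 3.3% were called higher and 5.49% lower, where 10.3% and 5.67% of all tested genes were. On the lower side were Cox6c (-0.81), Ndufs6 (-0.68), Ndufc1 (-0.65), Ndufa1 (-0.45), Cox7a2l (-0.38) and the mitochondrially encoded ND4L (-0.33). On the higher side were Uqcrc2 (0.28), Uqcrfs1 (0.31), Cox7a2 (0.36), the transcription factor gene Hif1a (0.33) and AA467197 (2.31). AA467197, Uqcrfs1, Uqcrc2, Cox7a2l, ND4L and Hif1a kept their call in each of the 12 fits that left out 1 library. Cox6c did not without Pam3 replicate 1 (-0.74) or 3 (-0.72), nor Ndufa1 without TGFβ replicate 2 (-0.38), and neither was called with an offset for gene length and GC content (-0.64 for Cox6c and -0.24 for Ndufa1). Without the 5 libraries high in mitochondrial rRNA, 7 of the 8 members lost their call, all but Uqcrfs1, with Uqcrc2 at 0.23 (adjusted p 0.343) and Cox7a2l at -0.41 (adjusted p 0.0541), and so did Hif1a (0.25, adjusted p 0.332). Summed with its single-exon copy, Ndufs6 gave -0.22 and was not called. Ndufc1 was not called in 10, Ndufs6 in 8 and Cox7a2 in 7 of the 12 fits that left out 1 library, with values from -0.70 to -0.51, -0.70 to -0.54 and 0.28 to 0.36 in the fits that lost the call.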

How the results depend on the processing

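Counts of members called moved by over 1.5 times under these settings. For Pam3 without TGFβ, where 4 were lower, limma-trend, the fit of 6 libraries and the covariate for mitochondrial rRNA gave 2, the length and GC offset 9, and leaving out the 5 libraries high in mitochondrial rRNA 1. For Pam3 with TGFβ (5 higher, 11 lower), upper-quartile scaling gave 3 and 20 and leaving out the 5 libraries 1 and 7. For TGFβ without Pam3 (5 higher), leaving out the 5 libraries gave 3. For TGFβ with Pam3 (1 higher, 29 lower), DESeq2-type factors, DESeq2, limma-trend, the replicate block and the fit of 6 libraries gave 2 higher, at least 10 counts in every library 3, and leaving out the 5 libraries 16 lower. For the interaction (3 higher, 5 lower), DESeq2 gave 7 higher, the fits with no filter, with at least 10 counts in every library, with the replicate block and with the offset 5, and leaving out the 5 libraries 1 higher and 0 lower; its median was 0.056 with the offset. Leaving out 1 library gave, for higher and lower calls and the median, 0 to 2, 1 to 13 and -0.096 to 0.065 (Pam3 without TGFβ), 2 to 6, 7 to 16 and -0.115 to -0.037 (Pam3 with TGFβ), 3 to 8, 27 to 39 and -0.20 to -0.051 (TGFβ without Pam3), 1 to 2, 19 to 33 and -0.18 to -0.109 (TGFβ with Pam3), and 2 to 5, 2 to 8 and -0.101 to 0.044 (interaction). Of all tested genes, those fits called 7.05% to 10.3% higher and 6.35% to 9.16% lower for Pam3 without TGFβ. For Pam3 with TGFβ the shares were 16.8% to 21.9% and 16.1% to 19.7%. For TGFβ without Pam3 they were 21% to 23.5% and 25.2% to 28%. With Pam3 present they were 18.8% to 22.8% and 21.3% to 24.9%. For the interaction they were 8.18% to 10.5% and 4.59% to 5.96%. The cause of the shifts in the members' counts and medians was not tested. Upper-quartile scaling moved the median of all genes for Pam3 with TGFβ by -0.062 and called 16.8% of them higher and 23.7% lower. For Pam3 without TGFβ, limma-trend, the fit of 6 libraries, the covariate and the offset called 8.05%, 7.07%, 8.02% and 8.43% of all tested genes lower. The settings that moved the higher count for TGFβ with Pam3 called 21.8% to 26.9% of them higher. For the interaction, DESeq2, the 2 other filters, the block and the offset called 6.76% to 12.3% higher. A single gene changed sign past the threshold: Ndufb4 with TGFβ was -0.21 once summed with its copies. Among single genes, 116 values lost and 113 gained a call over the settings and 141 and 78 when 1 library was left out. The labels do not say whether replicate numbers pair the libraries. Same-numbered libraries correlated from -0.29 to 0.43, 9 of 18 pairs above 0.1, and 5 of 12 libraries correlated best with their own number. These values do not decide it. The replicate block kept 39 of 39 calls for TGFβ without Pam3 and 29 of 30 with it. Members with few counts, such as Cox4i2 and Atp5k, could show only large changes.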

Other observations

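Genes known to set mitochondrial content and hypoxia signalling changed in both directions. Ppargc1b, a coactivator of respiratory gene expression, fell from 39.03, 29.2 and 39.3 CPM in untreated to 16.5, 18.8 and 20.5 CPM in TGFβ libraries (-0.94 ± 0.12, adjusted p 1.61e-06) and also with TGFβ in the presence of Pam3 (-1.24 ± 0.12, adjusted p 6.04e-08). Its relative Ppargc1a had at most 5 counts in any library. Nrf1, the factor whose motif is listed above, was higher with TGFβ (0.21 ± 0.079 without and 0.31 ± 0.079 with Pam3), the former not called without untreated replicate 1 (0.18) or 3 (0.18) or TGFβ replicate 1 (0.16) or 2 (0.21). Tfam, which packages and transcribes mitochondrial DNA, was higher with TGFβ in Pam3-treated cells (0.28 ± 0.086, adjusted p 0.00831), but not without Pam3 replicate 3 (0.21). Esrra, an estrogen-related receptor gene, was higher with Pam3 in TGFβ-cultured cells (0.27 ± 0.064, adjusted p 0.00146). Without the 5 libraries high in mitochondrial rRNA the calls of Nrf1 with TGFβ alone (0.20, adjusted p 0.200) and of Tfam (0.15, adjusted p 0.331) were lost. Of 13 tested biogenesis regulators, 4 were higher and 1 lower with TGFβ alone, where 22.9% of all tested genes were called higher and 28.1% lower. For Pam3 in TGFβ-cultured cells, 1 of these 13 regulators was higher and 5 lower (38.5%). The background shares there were 20.4% and 18.1%.

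Ucp2, an inner membrane carrier, rose with TGFβ, from 1223, 1350 and 1117 CPM to 1980, 1843 and 1895 CPM (0.63 ± 0.060, adjusted p 2.07e-09), and by 0.61 ± 0.060 with Pam3 present. Hif1a stood at 173, 165 and 178 CPM in untreated, 176, 187 and 181 CPM in TGFβ, 229.5, 227 and 223 CPM in Pam3 and 327, 282 and 293 CPM in Pam3+TGFβ libraries. Pam3 raised it by 0.40 ± 0.049 without and by 0.73 ± 0.049 with TGFβ. Of 8 tested genes of the hypoxia list, 3 were higher and 2 lower with TGFβ alone and 5 higher and 1 lower with TGFβ in Pam3-treated cells, where the shares of all tested genes were 22.9% and 28.1% and then 21.5% and 23.8%.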
